A study of Homo sapiens with 12 samples.

Results

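The genes described here are 9 members of the Krüppel-like factor (KLF) family, KLF2, KLF3, KLF4, KLF5, KLF6, KLF9, KLF10, KLF11 and KLF13. They were found by Ensembl identifier among the 58051 genes of 2 deposited count tables, and all 9 passed the filter on low counts. KLF proteins carry zinc fingers at the carboxyl end that bind GC-rich and CACCC sequences, and the rest of the protein decides whether a factor activates or represses. KLF2, KLF4, KLF5 and KLF6 act largely as activators, KLF3 recruits the CtBP corepressors, and KLF9, KLF10, KLF11 and KLF13 recruit the SIN3A corepressor. In gut epithelium KLF5 is known for the proliferating crypt cells and KLF4 for the differentiated cells above them, and several family members are early-response genes of growth factors.

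HCT116 cells, a line from a human colon carcinoma, were treated with an siRNA (a short duplex that lowers the RNA it matches) against prefoldin subunit gene PFDN2 or PFDN5, or with the control siRNA siControl. Serum was withdrawn 24 h after the siRNA for 48 h, and RNA was taken from the starved cells or from cells given serum for 90 min. The 6 groups were therefore siControl, siPFDN2 and siPFDN5, each before and after serum, with 2 libraries a group and starvation and transfection shared by all. All cells are of 1 line, and the labels do not say whether the libraries of a group came from separate cultures, so p-values measure the spread between libraries, which may be technical. Levels are in CPM, counts relative to the scaled library total, over the whole gene body with introns, unless exon counts are named.

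Gene-body totals ran from 59784425 to 136504590 per library. The 2 libraries of a group differed most in siPFDN2 before serum, where replicate 2 stood apart. The deviation of its log2 CPM from each gene's mean over the 12 libraries followed transcript GC content, with a Spearman rho of 0.688. In the other 11 libraries that rho was between -0.280 and 0.133. The siRNA target PFDN2 was at 70.9% of siControl before serum and 50.8% after it under siPFDN2, and PFDN5 was at 58.4% before serum under siPFDN5. After serum, PFDN5 was at 95.9% of siControl in the libraries with the siPFDN5 label. Of 10 epithelial markers 7 averaged at least 1 CPM, with EPCAM between 151 and 240 CPM, and of the intestinal markers among them CDX2 was at 5.57 CPM or more and VIL1 between 7.83 and 16.7 CPM, while CDX1, LGR5 and CEACAM5 stayed below 0.13 CPM. Summed markers of fibroblasts reached 4.07 to 15.9 CPM, nearly all COL1A1, those of endothelium 1.42 to 2.53 CPM and those of blood 0.108 to 0.267 CPM.

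In the GRCh38 coordinates of the count tables KLF2 (ENSG00000127528) lies at chr19:16324817-16327874 on the plus strand, KLF3 (ENSG00000109787) at chr4:38664196-38701042 (plus) and KLF4 (ENSG00000136826) at chr9:107484852-107490482 (minus). KLF5 (ENSG00000102554) lies at chr13:73054976-73077542 (plus), KLF6 (ENSG00000067082) at chr10:3775996-3785281 (minus) and KLF9 (ENSG00000119138) at chr9:70384597-70414624 (minus). KLF11 (ENSG00000172059) lies at chr2:10042849-10054836 (plus) and KLF13 (ENSG00000169926) at chr15:31326855-31435665 (plus). Counting used no strand and counted a fragment for every gene it touched, so values of KLF3 include reads of KLF3-AS1, those of KLF11 reads of AC104794.4 and those of KLF13 reads of UBE2CP4, and these 3 genes are uncertain to that extent. KLF2 is the most GC-rich of the 9 by transcript sequence, at 65.2%, against 41.5% to 57.6% in the others.

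RefSeq promoter windows of 300 bases, 250 before and 50 after the start, were searched for 7 of the 9 genes, with 2 windows each for KLF5 and KLF11. The windows of KLF2, KLF4 and KLF6, which rose with serum, and the KLF11 window that holds a cyclic AMP response element (CRE) are shown in the direction of transcription, from assembly GRCh38.p14, at chr19:16324576-16324875 (plus), chr9:107489720-107490019 (minus), chr10:3785160-3785459 (minus) and chr2:10043971-10044270 (plus). Capitals mark the serum response factor CArG box, the MEF2 element, the CRE or the AP-1 site where a search of both strands found one.
KLF2: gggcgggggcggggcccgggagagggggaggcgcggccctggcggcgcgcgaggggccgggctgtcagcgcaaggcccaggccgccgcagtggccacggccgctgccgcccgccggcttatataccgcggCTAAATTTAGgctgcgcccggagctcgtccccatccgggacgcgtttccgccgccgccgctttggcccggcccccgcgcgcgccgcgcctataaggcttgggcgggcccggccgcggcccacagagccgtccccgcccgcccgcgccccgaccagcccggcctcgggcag
KLF4: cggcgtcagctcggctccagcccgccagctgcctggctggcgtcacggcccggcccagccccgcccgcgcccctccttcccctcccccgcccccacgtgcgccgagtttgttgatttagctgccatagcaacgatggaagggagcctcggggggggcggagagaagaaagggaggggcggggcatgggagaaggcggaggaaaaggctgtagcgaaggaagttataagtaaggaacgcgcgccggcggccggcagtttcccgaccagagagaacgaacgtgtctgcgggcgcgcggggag
KLF6: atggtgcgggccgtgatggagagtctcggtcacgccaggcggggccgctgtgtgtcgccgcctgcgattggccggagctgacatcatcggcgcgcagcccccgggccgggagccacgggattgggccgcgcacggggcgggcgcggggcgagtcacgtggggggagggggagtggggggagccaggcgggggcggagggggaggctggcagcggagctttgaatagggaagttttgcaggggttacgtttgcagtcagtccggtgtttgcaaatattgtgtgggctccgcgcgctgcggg
KLF11: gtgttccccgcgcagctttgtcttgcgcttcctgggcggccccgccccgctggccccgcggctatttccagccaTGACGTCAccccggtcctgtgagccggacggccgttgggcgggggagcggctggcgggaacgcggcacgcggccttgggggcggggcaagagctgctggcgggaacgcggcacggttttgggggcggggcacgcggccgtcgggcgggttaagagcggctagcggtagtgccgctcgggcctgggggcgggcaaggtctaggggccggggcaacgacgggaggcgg
The capitals in KLF2 are a MEF2 element, at -120 to -111 from the start, and those in KLF11 the CRE, at -176 to -169. The MEF2 element is held by 0.572% of the 35116 RefSeq windows and by 1 of the 7 genes, and the CRE (TGACGTCA) by 1.85% of windows and 1 of the 7. The CArG box, found in 1.29% of windows, and the AP-1 site (TGANTCA), in 7.71%, were in none of the 7. The GC box (GGGCGG), which KLF and SP proteins bind, was in 45.0% of windows and in 6 of the 7 genes, all but KLF9, and the letters CACCC were in 59.9% of windows and in KLF5, KLF11 and KLF13. A gene is counted where any of its windows holds the letters, while the shares are of single windows. The 2 measures therefore differ for KLF5 and KLF11, which have 2 windows each. A match describes the letters in the window and no more.

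Before serum, and per kilobase of exon, KLF10 was the most abundant of the 9 in siControl at 17.9 exon CPM per kb. KLF5 (11.05), KLF13 (9.37), KLF3 (7.82) and KLF6 (5.61) followed, then KLF2 (3.12), KLF9 (2.68), KLF11 (2.20) and KLF4 (1.97), and no neighbours in that order overlapped between their libraries. After serum KLF10 (48.9), KLF5 (44.5) and KLF6 (37.5) led in siControl, with KLF5 overlapping both of the others. KLF4 came next at 11.7, from last before serum. KLF3 (10.0), KLF13 (9.29), KLF2 (8.87), KLF11 (3.96) and KLF9 (2.87) followed, with KLF13 and KLF2 overlapping. After serum KLF5 was above KLF10 under both siPFDN2 (50.8 against 47.7, overlapping) and in the libraries labelled siPFDN5 (49.9 against 43.2).

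**Figure D1:**
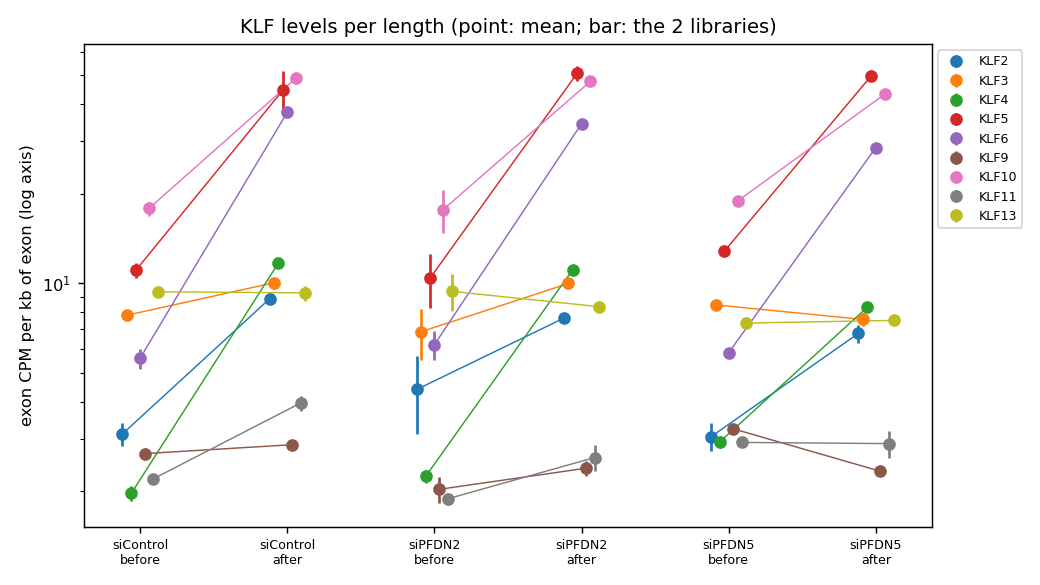
Exon CPM per kilobase of exon (log axis) of the 9 KLF genes in the 6 groups, with the mean as a point, the 2 libraries as a bar and a line from before to after serum. KLF4 goes from last place (1.97) to 11.7 in siControl, above 5 of the other genes, while the lines of KLF9 and KLF13 stay near level.

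Serum was followed by higher levels of 6 of the 9 genes in siControl and none lower. In siControl 690 of 27915 genes were called higher, 2.47% of all (edgeR quasi-likelihood test with Benjamini-Hochberg adjustment over all genes, adjusted p under 0.05). The genes called were KLF2, KLF4, KLF5, KLF6, KLF10 and KLF11, and the median log2 fold change of the 9 was 1.42, against 0.01 over all genes. Under siPFDN2 4 of the 9 were called higher (background 2.06%), in the libraries labelled siPFDN5 5 (background 5.72%), and on average over the 3 siRNAs 6 (background 7.6%). KLF4, KLF5, KLF6 and KLF10 were called under every siRNA. Median log2 fold changes of the 9 were 0.83, 1.27 and 1.19 in these 3 comparisons, against -0.02, -0.03 and -0.03 over all genes. Without the siPFDN2 library that stood apart the counts were 7 in siControl, 5 under siPFDN2, 6 in siPFDN5 and 6 on average. The backgrounds were 6.2%, 2.51% and 14.9% for higher calls in siControl, siPFDN2 and the average, and 36.3% for either direction in siPFDN5, where 1 of the 6 calls was KLF9, lower. Without replicate 1 of siPFDN2 before serum, which leaves the library that stood apart as the only one of its group, all 9 were called under siPFDN2, at a background of 48.6% in either direction.

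**Figure D2:**
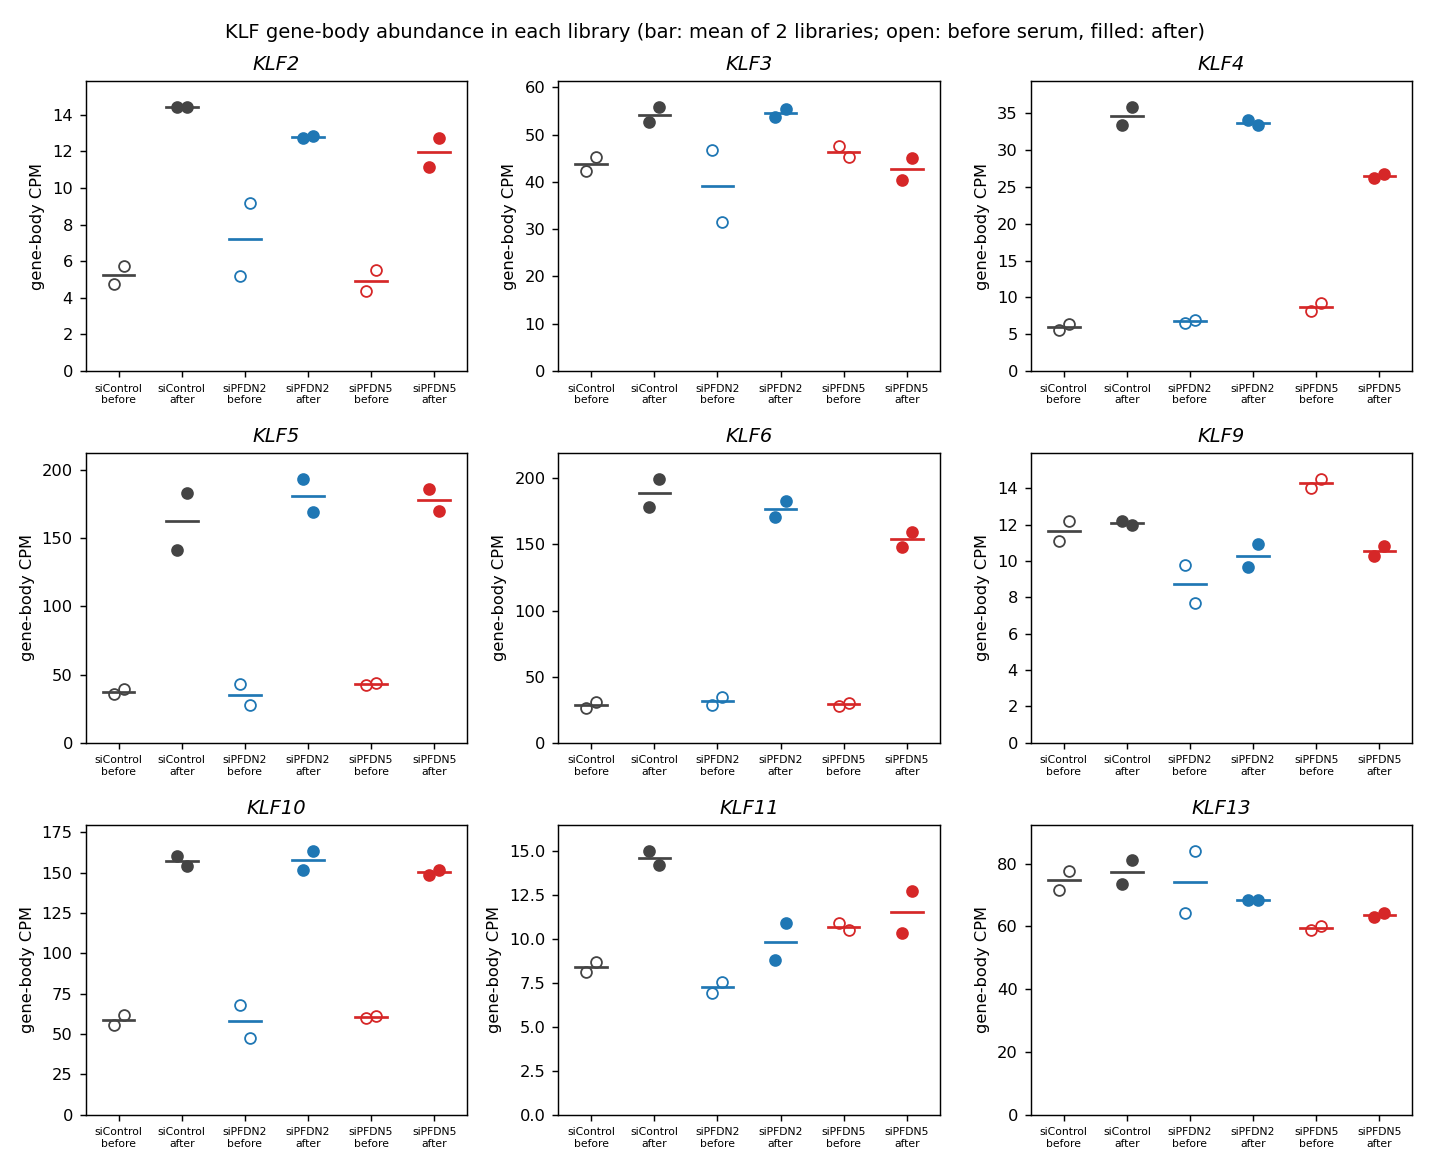
Gene-body CPM of each KLF gene in each of the 12 libraries (points, open before serum and filled after it), with the mean of 2 libraries as a bar. In KLF4, KLF5, KLF6 and KLF10 every library after serum lies above every library before it, while KLF9 and KLF13 do not separate that way.

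KLF6, an early-response gene also described as a tumour suppressor, had the largest log2 fold change of the 9 under each siRNA in the fit of all 12 libraries. In siControl its libraries were at 26.6 and 30.6 CPM before serum and 178 and 199 after it. Under siPFDN2 it stood at 28.7 and 34.9 before and 171 and 183 after, and under siPFDN5 at 28.0 and 30.4 before and 148 and 159 in the libraries labelled after. All 6 libraries after serum exceeded all 6 before it. The log2 fold change was 2.72 (SE 0.16) in siControl, 2.48 (SE 0.16) in siPFDN2 and 2.40 (SE 0.16) in siPFDN5, 6.60-fold, 5.56-fold and 5.27-fold, with edgeR quasi-likelihood adjusted p of 3.13e-06, 6.91e-06 and 7.90e-06.

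KLF4, a factor of growth arrest and differentiation in the gut, was at 5.63 and 6.32 CPM before serum in siControl and at 33.5 and 35.8 after it. Under siPFDN2 it stood at 6.57 and 6.98 before serum and 34.1 and 33.4 after. Under siPFDN5 it stood at 8.15 and 9.18 before serum, above all 4 other libraries before serum, and at 26.2 and 26.8 in the libraries labelled after, below all 4 others after serum. Log2 fold changes were 2.53 (SE 0.15), 2.31 (SE 0.15) and 1.61 (SE 0.14), with edgeR quasi-likelihood adjusted p of 3.01e-06, 6.11e-06 and 9.35e-05.

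KLF5, the crypt-cell factor that promotes proliferation, stood at 35.6 and 39.5 CPM before and 141 and 183 after serum in siControl. Its libraries were at 42.8 and 27.4 before and 193 and 169 after serum under siPFDN2, and at 42.0 and 43.4 before and 186 and 169 labelled after under siPFDN5. No library before serum reached any after it. Log2 fold changes were 2.11 (SE 0.21), 2.36 (SE 0.22) and 2.05 (SE 0.21), with edgeR quasi-likelihood adjusted p of 0.000232, 0.000111 and 0.000292.

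KLF2, known from quiescent endothelium and T cells, was called in 2 of the 3 siRNAs by edgeR with all libraries. In siControl its libraries were at 4.75 and 5.73 CPM before and 14.4 and 14.4 after serum, and under siPFDN5 at 4.36 and 5.51 before and 11.1 and 12.7 labelled after. Under siPFDN2 it stood at 5.19 and 9.20 before and 12.7 and 12.8 after, and the 9.20 belongs to the library that follows GC content. KLF2 rose in siControl, with a log2 fold change of 1.46 (SE 0.24) and an edgeR quasi-likelihood adjusted p of 0.00710, and in siPFDN5 with 1.27 (SE 0.25) and 0.0129. Under siPFDN2 the fold change was 0.83 (SE 0.24, adjusted p 0.0817), and without that library it was 1.30 with an adjusted p of 0.000251, while without the other library of its group it was 0.48 (0.0180). DESeq2 (0.83, adjusted p 0.0168) and edgeR with no filter (0.77, 0.00982) also called KLF2 under siPFDN2. In that comparison they called 3139 and 5294 of all genes, against 910 in the main fit. With the GC trend of each library removed the KLF2 value under siPFDN2 was 1.45 (adjusted p 5.46e-05), where 1876 of all genes were called. The siControl call was lost without either siControl library before serum (adjusted p 0.126 and 0.0577) or replicate 1 after serum (0.0572), and the siPFDN5 call without any 1 of its own 4 libraries (0.0558 to 0.148).

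KLF10 (ENSG00000155090, chr8:102648779-102655902, minus strand) was first described as a gene switched on early by transforming growth factor beta. It stood at 55.5 and 61.8 CPM before and 160 and 154 after serum in siControl. Its levels were 68.2 and 47.8 before and 152 and 163 after serum under siPFDN2, and at 59.8 and 60.8 before and 149 and 152 labelled after under siPFDN5. All 6 libraries after serum were above all 6 before it, between 149 and 163 CPM. Fold changes on the log2 scale were 1.42 (SE 0.17), 1.44 (SE 0.17) and 1.32 (SE 0.17), near 2.68-fold, 2.72-fold and 2.49-fold, with edgeR quasi-likelihood adjusted p of 0.000668, 0.00073 and 0.00136.

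KLF11, the second gene described as early-induced by that growth factor, rose less. In siControl its libraries were at 8.15 and 8.67 CPM before and 15.02 and 14.2 after serum, under siPFDN2 at 6.92 and 7.58 before and 8.80 and 10.9 after, and under siPFDN5 at 10.9 and 10.5 before and 10.4 and 12.7 labelled after. The groups separated in siControl and siPFDN2 and overlapped in siPFDN5. The log2 fold change was 0.80 (SE 0.17) in siControl, with an edgeR quasi-likelihood adjusted p of 0.0259, and 0.45 (SE 0.10) on average, with 0.0107. It was 0.44 (SE 0.17, adjusted p 0.128) in siPFDN2 and 0.11 (SE 0.17, adjusted p 0.700) in siPFDN5. The siControl call was lost in 8 of the 12 fits that left out 1 library (adjusted p up to 0.291) and with scaling to library size only (0.0982), and the average call was lost without siPFDN2 after serum replicate 2 (0.0504) and with library size only (0.0765).

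KLF3, the CtBP-binding repressor, stood at 42.2 and 45.2 CPM before and 52.6 and 55.8 after serum in siControl, at 46.7 and 31.6 before and 53.8 and 55.3 after under siPFDN2, and at 47.5 and 45.3 before and 40.5 and 45.0 labelled after under siPFDN5. Libraries after serum were higher in siControl and siPFDN2 and lower in siPFDN5, and no comparison passed the test. The log2 fold change was 0.31 (SE 0.18), 0.48 (SE 0.18) and -0.12 (SE 0.18), with edgeR quasi-likelihood adjusted p of 0.546, 0.125 and 0.688. Without replicate 1 or 2 of siPFDN2 before serum the siControl value was 0.31 either way, with an adjusted p of 0.0274 and 0.0261, while the siPFDN2 value was 0.80 (adjusted p 1.76e-05) without replicate 1 and 0.22 without replicate 2, the library that stood apart.

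KLF9, a factor induced by glucocorticoids and thyroid hormone, stood at 11.1 and 12.2 CPM before and 12.2 and 11.96 after serum in siControl, and at 9.76 and 7.68 before and 9.64 and 10.9 after under siPFDN2. Under siPFDN5 it stood at 14.03 and 14.5 before, the highest of the libraries before serum, and at 10.3 and 10.8 labelled after. The groups overlapped in siControl and siPFDN2 and separated in siPFDN5. The log2 fold change was 0.05 (SE 0.16), 0.24 (SE 0.16) and -0.44 (SE 0.16), with edgeR quasi-likelihood adjusted p of 0.966, 0.334 and 0.0910. The siPFDN5 value passed with the GC trend removed (-0.39, adjusted p 0.0228) and with library size only (-0.59, 0.0495). With the GC trend removed 8185 of the 27915 genes tested were called in that comparison, against 3407 in the main fit. Without the siPFDN2 library that stood apart the KLF9 value in siPFDN5 was -0.43, and in siControl it turned to -0.02 with library size only. KLF13, a factor known from lymphocytes, stood between 58.8 and 84.1 CPM in the 12 libraries. In siControl it was at 71.8 and 77.7 before and 73.6 and 81.2 after serum. Its log2 fold change was 0.05, -0.12 and 0.10 (SE 0.15 each), with edgeR quasi-likelihood adjusted p of 0.964, 0.622 and 0.701, and its sign depended on the scaling.

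**Figure D3:**
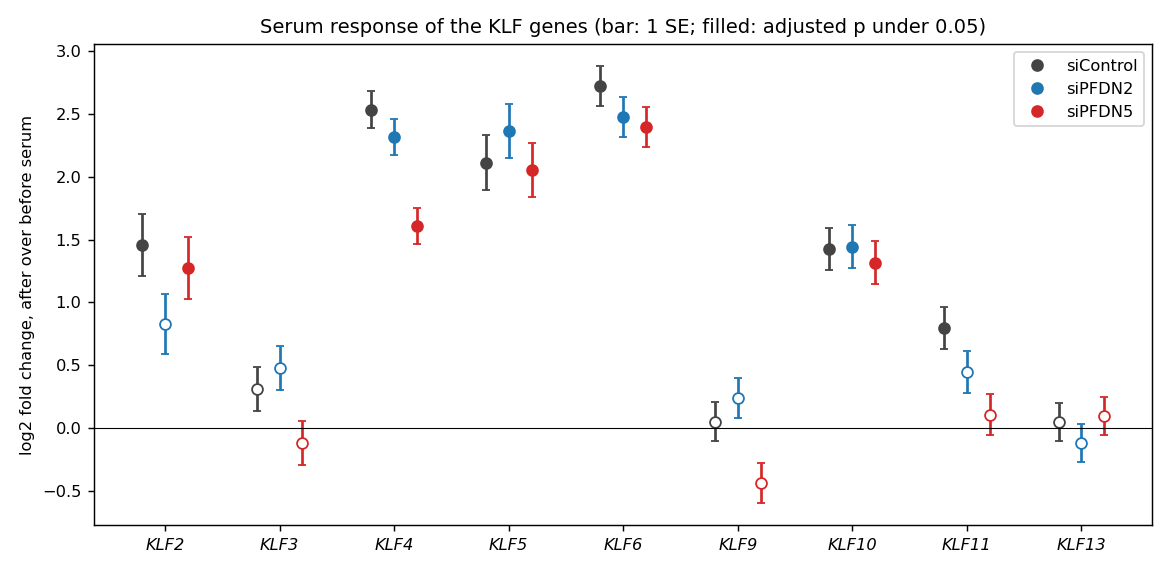
Log2 fold change of each KLF gene after over before serum in siControl, siPFDN2 and siPFDN5, with 1 SE as a bar and filled points for an adjusted p under 0.05. KLF6 reaches 2.72, and KLF9 and KLF13 lie near 0 in siControl.

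No KLF gene was called in either knockdown against siControl before or after serum, and none in the comparison of serum responses between a knockdown and siControl (siPFDN2 difference and siPFDN5 difference). Over all genes the edgeR quasi-likelihood test called 0.0% for siPFDN2 before serum, 0.00716% for siPFDN5 before, 0.0% for siPFDN2 after, 0.00358% for siPFDN5 after and 0.0% for either difference. At an unadjusted p under 0.05 the same test counted 1 KLF gene in each of the 4 knockdown comparisons, 0 in the siPFDN2 difference and 2 in the siPFDN5 difference, while 3156, 3432, 1747, 6032, 1841 and 5847 of all genes were under that mark. DESeq2 called 1 KLF gene, in the siPFDN5 difference, and none in the other 5, while it called 0.0967%, 1.17%, 0.00716%, 6.85%, 0.00716% and 6.2% of all genes.

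KLF4 had the lowest adjusted p among the 9 in the siPFDN5 comparisons. It was 0.54 (SE 0.14) higher on the log2 scale in siPFDN5 than in siControl before serum, and 0.39 lower after it (log2 fold change -0.39, SE 0.14), with edgeR quasi-likelihood adjusted p of 0.225 and 0.146. The serum response differed by -0.92 (SE 0.20, adjusted p 0.0960), an interval of -1.32 to -0.53 at 2 SE. DESeq2 gave -0.90 (adjusted p 0.00381; background 6.2%), and with the GC trend removed edgeR gave -0.93 (0.0432; 8.69%), but with the replicate block added to that fit the adjusted p was 0.0628. Without either library of siPFDN2 before serum the difference was -0.91, and without siControl after serum replicate 2 it was -0.80. The fit of all libraries did not pass the test. The PFDN5 level of 95.9% of siControl in the libraries labelled siPFDN5 after serum goes with these values, and its part in them was not tested.

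KLF11 was the other gene under an unadjusted p of 0.05 in that difference, with -0.69 (SE 0.23, edgeR quasi-likelihood adjusted p 0.131). It was also lower in siPFDN2 than in siControl after serum, by a log2 fold change of -0.57 (SE 0.16, adjusted p 0.772), and KLF9 was lower in siPFDN2 before serum, with -0.42 (SE 0.16, adjusted p 0.442). That KLF9 value was -0.61 (adjusted p 0.00102; background 41.8%) without replicate 1 of siPFDN2 before serum and -0.26 without replicate 2. Without the siPFDN2 library that stood apart, KLF3, KLF4, KLF9 and KLF11 were called in the siPFDN5 difference (21.8% of all genes), KLF4 and KLF13 in siPFDN5 before serum (6.96%) and KLF3, KLF4, KLF6 and KLF13 in siPFDN5 after serum (23.9%). Among the KLF genes not named for a comparison, log2 fold changes ran from -0.21 to 0.46 for siPFDN2 before serum, -0.33 to 0.35 for siPFDN5 before, -0.23 to 0.16 for siPFDN2 after and -0.34 to 0.13 for siPFDN5 after. The siPFDN2 difference ran from -0.63 in KLF2 to 0.25 in KLF5 over all 9.

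**Figure D4:**
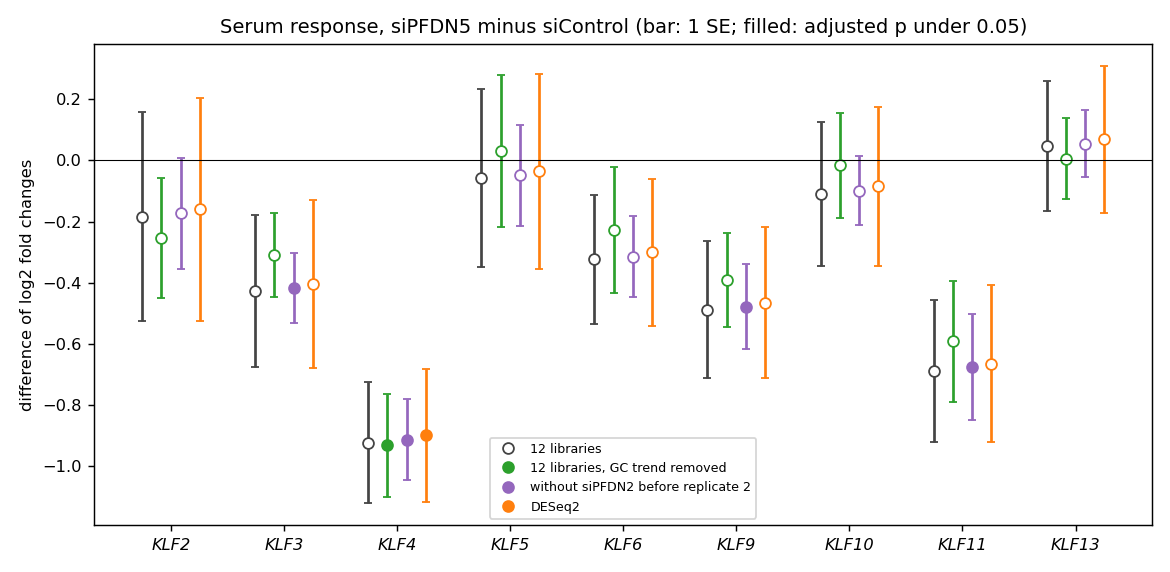
Difference of the serum response, siPFDN5 minus siControl, as a log2 value with 1 SE, from all 12 libraries and from 3 alternatives, with filled points for an adjusted p under 0.05. KLF4 lies at -0.92 in the fit of all libraries and between -0.93 and -0.90 in the 3 alternatives shown, where its points are filled. Most of the alternatives not shown did not call it, among them the replicate block alone or with the GC trend removed.

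Intronic counts (gene-body minus exon counts) stand for unspliced RNA and were tested in 6 of the 9 genes, since KLF3, KLF11 and KLF13 overlap another gene. The intronic share of all counts ran from 14.8% to 25.9% over the libraries, with 22.8% and 25.9% in siPFDN5 before serum and 17.2% and 14.8% in those labelled after. In siControl 4.22% of the 4031 genes tested changed their share with serum, in siPFDN2 5.43%, in siPFDN5 58.0% and on average 40.0%, with all-gene medians of 0.12, -0.31, -0.98 and -0.39 on the log2 scale. The share of KLF5 was 7.45% and 6.19% before and 19.8% and 10.3% after serum in siControl, and the interaction was 1.21 (SE 0.34, edgeR quasi-likelihood adjusted p 0.0421). The call was lost in 9 of the 12 fits without 1 library, all but those without siControl after serum replicate 2 or either siPFDN2 library before serum. Without siControl after serum replicate 1, whose share of 20.6% for all counts was the highest of the siControl libraries, the value fell to 0.66 (adjusted p 0.235). Under siPFDN2 the KLF5 share was 6.20% and 6.61% before and 11.8% and 9.15% after serum (0.77, SE 0.34, adjusted p 0.169). On average over the siRNAs KLF9 (-1.37, edgeR quasi-likelihood adjusted p 8.79e-05), KLF4 (-0.68, 0.0345) and KLF5 (0.49, 0.0498) were called, where 40.0% of all genes were. The averaged KLF5 value has the opposite sign to the all-gene median of -0.39. Its call was lost in most fits without 1 library, where the value ran from 0.31 to 0.67. It was also lost with at least 50 counts of each kind (edgeR quasi-likelihood adjusted p 0.0508) and when overlapping genes were tested as well (0.0802). The averaged KLF4 call was lost in many of the fits without 1 library, with values from -0.83 to -0.55.

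In siPFDN5 the share of 3 of the 6 genes fell. KLF9 went from 8.51% and 5.92% before (75 and 58 intronic counts) to 0.96% and 1.19% labelled after (7 and 11 intronic counts). The KLF9 interaction was -2.80 (SE 0.40, edgeR quasi-likelihood adjusted p 4.41e-05), and it ran from -3.07 to -2.51 when 1 library was left out. These values rest on few intronic counts. KLF4 (-1.08, adjusted p 0.0401) and KLF6 (-0.88, adjusted p 0.0336) were also called there, and KLF2 (-0.28, adjusted p 0.676), KLF5 (-0.51, 0.196) and KLF10 (-0.59, 0.135) were not. These 3 calls of 6 stand beside the 58.0% of all genes called, and the share of the whole library moved in the same direction; the part of this in the KLF values was not tested. The KLF6 call was lost without any 1 of the 4 siPFDN5 libraries (adjusted p up to 0.192). The KLF4 call was lost without either siControl library before serum, either siPFDN5 library before serum or siPFDN5 after serum replicate 2 (up to 0.310). Among the 3 genes that overlap another, KLF13 went from 3.80% and 4.29% to 13.3% and 6.71% with serum in siControl and from 8.91% and 8.03% to 4.39% and 4.60% in siPFDN5, and KLF3 and KLF11 ran from 3.50% to 11.9% and from 0.81% to 4.57%.

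**Figure D5:**
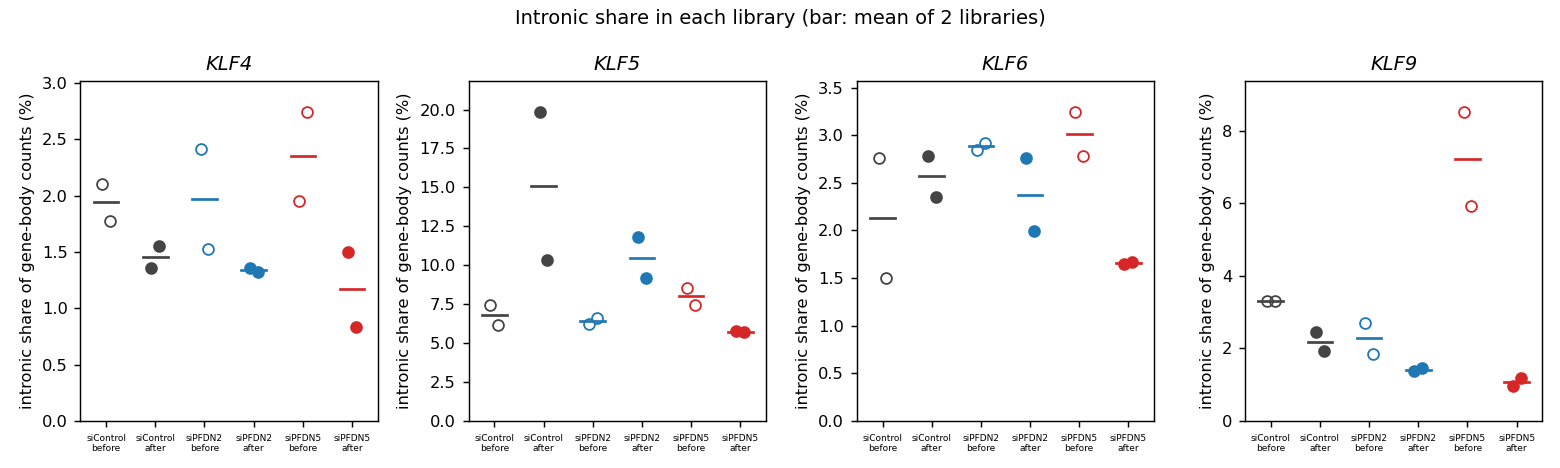
Intronic share of gene-body counts (percent) of 4 KLF genes in each library (points, open before serum and filled after it), with the mean of 2 libraries as a bar. KLF5 rises from 7.45% and 6.19% to 19.8% and 10.3% in siControl, and KLF9 drops from 8.51% and 5.92% to 0.96% and 1.19% in siPFDN5.

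Among the other KLF genes, 7 of 8 were tested, and on average 1 was called higher and 1 lower with serum, where 7.6% of all genes were called higher and 7.31% lower. KLF7, an activator of the same subgroup as KLF6, stood at 10.5 and 10.4 CPM before and 21.1 and 17.2 after serum in siControl, a log2 fold change of 0.87 (SE 0.15, edgeR quasi-likelihood adjusted p 0.00808). KLF15 fell by 0.45 on average (SE 0.13, adjusted p 0.0423). KLF12, a CtBP-binding repressor, fell by 0.90 in siPFDN5 (SE 0.24, adjusted p 0.0366). Its levels there were 27.6 and 22.5 CPM before and 12.9 and 13.99 labelled after. Those values include introns, and per kilobase of exon the siPFDN5 mean went from 1.77 to 1.19 exon CPM, a smaller fall. KLF12 also overlaps 2 other genes. Of the 9 SP genes, the relatives that share the binding site, none was higher and 2 were lower on average, SP8 (-1.55, SE 0.20, adjusted p 0.000552) and SP5 (-1.22, SE 0.28, adjusted p 0.0157). Both were barely detected, SP8 between 0.082 and 0.43 CPM and SP5 between 0.17 and 0.96 CPM in the 12 libraries. None of 10 corepressors and coactivators and none of 4 ubiquitin ligases of KLF proteins was called on average. In the ERK5 and MEF2 branch that acts upstream of KLF2 and KLF4, MEF2D was called higher on average (0.83, SE 0.15, adjusted p 0.00415) and MAP2K5 lower (-0.55, SE 0.13, adjusted p 0.0186), of 7 genes tested. By single siRNA, MEF2D was called only in siControl (1.40) and MAP2K5 only in siPFDN5 (-1.33). MAPK7 was called lower under siPFDN2 (-1.13, SE 0.26, adjusted p 0.0439), where 910 of all genes were called in either direction.

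Of 21 tested genes described as direct targets of KLF proteins, 4 were called higher and 3 lower on average, and the median was 0.15 against -0.03 over all genes. PER1, a circadian clock gene, had the largest value at 1.73 (SE 0.18, edgeR quasi-likelihood adjusted p 0.000107), and ODC1 of polyamine synthesis was at 0.63 (SE 0.09, adjusted p 0.00124). SMAD7 (0.42) and TGFBR2 (0.41) of transforming growth factor beta signalling were also called higher. ENG, also of that pathway, (-0.73), CDKN1B, a cell cycle inhibitor, (-0.54) and PDGFA (-0.34) were called lower. In siControl 2 of the 21 were called, both higher, PER1 (2.60) and TGFBR2 (0.78), and in siPFDN5 3 were called higher, PER1 (1.43), ODC1 (1.02) and the cell cycle inhibitor CDKN1A (0.57), and 1 lower, CDKN1B (-0.92). None of the 21 was called in either direction under siPFDN2, where 2.06% of all genes were called higher. Background shares of higher calls were 2.47% in siControl, 5.72% in siPFDN5 and 7.6% on average, and those of lower calls 6.48% in siPFDN5 and 7.31% on average. In no list was a gene called in a knockdown comparison or in a difference of the serum response. Among the called list genes KLF7, KLF12, MEF2D, MAP2K5, MAPK7, PER1, ODC1, TGFBR2, CDKN1B and ENG overlap at least 1 other gene, so their values can include its reads.

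By log2 CPM over the 12 libraries, the most like genes outside the family included GADD45B (r = 0.997) and CYR61 (0.995) for KLF6, ZNF217 (0.995) and GPRC5A (0.994) for KLF4, SOWAHC (0.995) and RND3 (0.993) for KLF5, IFFO2 (0.990) for KLF2 and NCEH1 (0.991) and ETS1 (0.987) for KLF10. For the genes that moved less the values were lower, with BMPR2 (0.980) and NPNT (0.956) for KLF9, ATP8B3 (0.938) for KLF13, AL355916.2 (0.937) and HECA (0.935) for KLF3 and UBE2V1 (0.905) and PALLD (0.886) for KLF11. These are correlations over 12 libraries of 6 groups, chosen from 10456 genes, and are given without a p.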

How the data were processed

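RNA-seq of 12 libraries of HCT116 cells was analysed from processed files. Per the file headers the deposited counts per gene came from featureCounts 1.5.2 on Ensembl release 87 of GRCh38, for gene bodies and for exons, with both ends mapped, no strand option, and a fragment that touched several genes added to every one of them. Per the submitters' processing notes HISAT2 and kallisto 0.43 were also used, with build GRCh38.p7. Per transcript files named for TPM hold estimated counts, going by the deposited values, which are mostly fractional and sum to 44071628 to 99082827 per library. The 6 columns of the tables that match no sample label were not used.

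Groups were read from the sample titles. Gene names came from GENCODE 29 (57447 of 58051 identifiers matched), and promoters from RefSeq. No promoter window of KLF3 or KLF10 was searched, so the motif counts say nothing about those genes. With edgeR 4.0.16 (R 4.3.3) 27915 genes passed filterByExpr, libraries were scaled by TMM (a factor per library that centres most genes), and 1 model of 6 group means was fitted to the 12 libraries with the robust quasi-likelihood test, two-sided. The threshold for a call was an adjusted p (Benjamini-Hochberg, over all genes) of 0.05. Intronic counts were gene-body minus exon counts, tested as an intron-by-serum interaction with the library as a block among genes that overlap no other and average at least 10 counts of each kind. Like genes are the 2 protein-coding genes outside the KLF and SP families with the highest Pearson r of log2 CPM (prior count 2), among genes with a mean of at least 3. Of these, 1 for KLF2 and 1 for KLF13 are not reported here.

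All 9 members are named in the serum responses, and in the other comparisons those with an unadjusted p under 0.05. The 9 genes and 6 gene lists were chosen with earlier results of these data known. The same replicate number gave correlations between groups from -0.322 to 0.592, with signs mixed, so the numbers were not taken to pair libraries. Alternatives were DESeq2 1.42.0, no filter, library size only, upper-quartile scaling, exon counts, a GC trend removed by lowess (span 0.3), the replicate block, and each library left out. Leaving out both libraries labelled siPFDN5 after serum was added after seeing the data. The depth of each library limits only low counts; the number of libraries, 2 a group, limits the tests.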

Additional observations from a re-analysis of the deposited data

How the results depend on the processing

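With 2 libraries a group the tests rest on a spread shared by all groups, and the libraries of siPFDN2 before serum widen it. A group left with 1 library was assumed to vary like the others, and the causes of the changes listed here were not tested. The replicate block left the counts of KLF genes called with serum at 6, 4, 5 and 6 (siControl, siPFDN2, siPFDN5, average) and at 0 in the knockdown comparisons and differences, so it changed no count; together with the GC trend removed the counts were 6, 5, 6 and 6, and 0 in the siPFDN5 difference. When 1 library was left out the counts ran from 4 to 7 in siControl, 4 to 9 in siPFDN2, 4 to 6 in siPFDN5 and 5 to 7 on average. They ran from 0 to 5 for siPFDN2 and 0 to 2 for siPFDN5 before serum, at 0 for siPFDN2 and 0 to 4 for siPFDN5 after it, and 0 to 4 in either difference. The highest counts came without a library of siPFDN2 before serum. The siPFDN5 difference had 1 KLF gene with DESeq2 and 1 with the GC trend removed, against 0.

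For the intronic share the number of KLF genes called ran from 0 to 1 in siControl, 0 to 1 in siPFDN2, 1 to 3 in siPFDN5 and 1 to 3 on average when 1 library was left out. Testing genes that overlap another as well gave 0 in siControl and 5 in siPFDN5, against 1 and 3, with more genes tested. In siPFDN5 that fit called 7796 of all genes, against 2338. At least 50 counts of each kind gave 1 in siPFDN5 and 0 on average, with fewer genes tested. KLF9 (7 to 75 intronic counts per library) and KLF4 (10 to 75) averaged below that mark, so their calls could not be checked there. KLF5 was tested there, and its averaged call was lost (0.49, edgeR quasi-likelihood adjusted p 0.0508).

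Log2 fold changes near 0 turned sign. With library size only, which moves the median of well-measured genes from 0.06 to -0.14 in siPFDN2 and from 0.11 to -0.04 in siPFDN5, KLF9 was at -0.017 and KLF13 at -0.020 in siControl, KLF11 at -0.041 and KLF13 at -0.053 in siPFDN5 and KLF13 at -0.13 on average. With exon counts KLF13 was at -0.012 in siControl and -0.051 on average and KLF11 at -0.012 in siPFDN5. KLF13 was at 0.24 in siPFDN2 with the GC trend removed, also with the replicate block, and on average at -0.040 with upper-quartile scaling, -0.0064 with no filter and -0.035 without both libraries labelled siPFDN5 after serum, where KLF9 was at 0.14. With 1 library left out, KLF9 ran from -0.021 to 0.12 and KLF13 from -0.087 to 0.12 in siControl, KLF13 from -0.29 to 0.089 in siPFDN2, KLF11 from -0.042 to 0.28 in siPFDN5, and on average KLF9 from -0.10 to 0.016 and KLF13 from -0.045 to 0.080. The intronic share ran from -0.11 to 0.78 for KLF6 and -0.024 to 0.13 for KLF10 in siControl, and from -0.40 to 0.11 for KLF10 in siPFDN2.

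Counts of all genes called moved by more than 1.5 times. With 1 library left out they ran from 275 to 2889 in siControl, 242 to 14264 in siPFDN2, 251 to 10556 in siPFDN5 and 2026 to 13863 on average, and from 0 to 12252 and 2022 before serum, 174 and 6936 after it and 11061 and 6329 in the differences (siPFDN2 and siPFDN5). In siControl the 800 became 1203 with DESeq2, 1627 with no filter, 529 with exon counts and 1769 with the GC trend removed (1507 with the replicate block). In siPFDN2 the 910 became 3416 with library size only, 3139 with DESeq2, 5294 with no filter, 1876 with the GC trend removed (1568 with the block) and 531 without both libraries labelled siPFDN5 after serum. In siPFDN5 the 3407 became 5341 with no filter, 1050 with exon counts and 8185 with the GC trend removed (7389 with the block), and on average the 4163 became 6741, 2729, 7925 and 7249, and 1576 without both those libraries. The siPFDN5 difference went from 0 to 1732 with DESeq2, 2413 with no filter and 2427 with the GC trend removed, but to 1 with the block as well, and siPFDN5 after serum from 1 to 1911, 2630, 3762 and 2640. Before serum siPFDN5 went from 2 to 328, 1032, 182 and 77, and siPFDN2 from 0 to 27, 1083, 6 and 2.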

Other observations

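Transcript estimates of several KLF genes stood apart in 1 library. Of the estimated counts of KLF5, the transcript KLF5-205 took a median of 69.9% over the 12 libraries and between 63.7% and 74.7% in 11 of them, but it is listed at 0 in siPFDN2 before serum replicate 2, where KLF5-201 took 97.5%. The leading protein-coding transcript of KLF6 took a median of 93.5% and was at 67.5% in that library, where KLF6-201, a processed transcript, took 19.1%. In the same library the leading transcript of KLF11 took 13.4% of the estimates, against 47.9% to 80.1% in the other 11, and the minor transcript of KLF2 took 17.9%, against at most 9.08%. The estimates of KLF13 summed to only 8.01% to 11.6% of its exon counts, against 99.3% to 106% in the other 8 genes. KLF16, a SIN3A-binding relative, stood at 77.1 CPM in siPFDN2 before serum replicate 2 and at 20.3 to 33.9 CPM in the other 11 libraries.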
